A study of Mus musculus with 48 samples.

Results

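The 56 genes described here encode the machinery of mitosis: the kinases and cyclins that drive it, the spindle assembly checkpoint, the anaphase-promoting complex with separase and securin, the kinetochore, the chromosomal passenger complex, the spindle, the cytokinesis apparatus, and condensin with topoisomerase II alpha and Ki-67. They were listed by symbol, under a rule that uses no measured level but with earlier results of these data known, and all 56 were found among the 50600 genes listed in the count tables and passed the filter on low counts. RNA was sequenced from mPDAC cells, a mouse pancreatic ductal adenocarcinoma line that the labels give as PDAC cells of FVB/N x C57BL6 background, either non-treated (NT, labelled Control, 3 cultures numbered 1, 2 and 4) or treated for 48 h with 50 µM of N6L, a pseudopeptide antagonist of nucleolin (3 cultures numbered 1, 2 and 3). From the lysate of each culture, 1 library was made of cytoplasmic RNA and 1 of RNA pooled from the polysomal fractions of a sucrose gradient, 12 libraries in all. The cultures of a group come from the same line, and nothing in the labels beyond their numbers says how separate they were, so the p-values below measure the spread between these samples.

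In a dividing cell, cyclin B with the kinase Cdk1 starts mitosis, condensin compacts the chromosomes, and the kinetochore on each centromere binds spindle microtubules. The spindle assembly checkpoint holds the cell in metaphase until every kinetochore is attached, after which the anaphase-promoting complex with Cdc20 marks securin and cyclin B for destruction, separase cuts cohesin and the cell divides. The mRNAs of most of these proteins accumulate in the G2 and M phases of the cell cycle, under the control of promoters that often carry CCAAT boxes and the cell cycle genes homology region (CHR), and their summed level is widely used as a sign of how many cells of a sample divide.

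The promoters of 47 of the 56 genes were found in the RefSeq table (GRCm38.p6), where a promoter runs from 250 bases before to 50 bases after a start site. The letters TTTGAA or, on the other strand, TTCAAA of the CHR stood in the promoters of 28 of these 47 genes (59.6%), against 20.2% of all 27025 genes of the table. The letters CCAAT or ATTGG stood in those of 33 genes (70.2%, against 41.1%), and both motifs in those of 24 genes (51.1%, against 7.97%). A match of so few letters is a description of the sequence and not a bound site. The 120 bases before the start site are shown for 6 genes to which the results below return, in lower case with every match in capitals and written 5′ to 3′ along the gene's strand.
Cdk1, chr10:69352913-69353032, minus strand: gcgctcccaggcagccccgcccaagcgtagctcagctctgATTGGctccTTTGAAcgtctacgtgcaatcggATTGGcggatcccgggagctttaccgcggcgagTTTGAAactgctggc
Ccnb2, chr9:70421555-70421674, minus strand: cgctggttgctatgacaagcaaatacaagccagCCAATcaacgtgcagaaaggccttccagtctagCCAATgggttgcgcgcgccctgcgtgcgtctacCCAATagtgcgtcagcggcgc
Cdc20, chr4:118437344-118437463, minus strand: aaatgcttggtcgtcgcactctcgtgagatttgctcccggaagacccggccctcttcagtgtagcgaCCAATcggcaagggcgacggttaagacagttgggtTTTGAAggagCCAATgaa
Top2a, chr11:99024190-99024309, minus strand: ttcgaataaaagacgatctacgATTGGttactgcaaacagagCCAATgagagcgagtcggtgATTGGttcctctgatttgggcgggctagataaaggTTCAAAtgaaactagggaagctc
Mki67, chr7:135716380-135716499, minus strand: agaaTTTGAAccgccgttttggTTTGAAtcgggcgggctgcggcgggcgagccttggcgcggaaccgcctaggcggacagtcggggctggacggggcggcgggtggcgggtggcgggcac
Birc5, chr11:117849117-117849236, plus strand: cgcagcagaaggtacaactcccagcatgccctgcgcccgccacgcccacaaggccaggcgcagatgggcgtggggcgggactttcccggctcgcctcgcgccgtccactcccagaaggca
In these windows Cdk1, Cdc20 and Top2a hold both motifs, Ccnb2 the CCAAT letters, Mki67 the CHR letters, and Birc5 neither. Outside the windows but within the promoters counted above, Ccnb2 also holds the CHR letters and Mki67 the CCAAT letters. The 9 genes without an entry in this table are Aurkb, Ccna2, Cdc25c, Dlgap5, Incenp, Smc4, Spc24, Tpx2 and Zwilch.

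The libraries held 19519911 to 44972333 counts after the 4 technical replicates of each had been summed, and these replicates differed by little more than counting noise (within a library, chi-square over its degrees of freedom was 1.02 to 1.05). In the cytoplasm of N6L culture 2, 3 of the replicates carry conflicting culture numbers in their labels, and they were kept under their titles. Levels are given as CPM, counts scaled to a common library total after TMM normalization, so every value is relative to the other mRNAs of its library and a fall of all polysomal mRNA together cannot appear in it. Among markers of the ductal and epithelial lineage, Krt7, Krt8, Krt18, Krt19, Cdh1 and Sox9 reached 1 CPM, whereas Epcam and Cldn4 stayed below it in every library (at most 0.301 and 0.122 CPM), and 0 of 6 fibroblast, 0 of 5 leukocyte and 0 of 3 endothelial markers reached it. Of 5 acinar markers 1 did, Cela1 (27.6 to 82.7 CPM). The nuclear-retained RNA Neat1 was at a mean of 38.0 CPM in NT and 153 CPM in N6L cytoplasm, and Malat1 at 58.2 and 63.8 CPM, and the part of either in the results was not tested. The N6L cultures differed from each other in the mitotic genes. The median deviation of the 56 genes from the non-treated mean of the same fraction was 0.00, -0.39 and -0.97 on the log2 scale in the polysomes of N6L cultures 1, 2 and 3, against -0.04, 0.05 and -0.04 in their cytoplasm, so the polysomal counts and medians are also given with cultures left out.

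The mitotic mRNAs as a whole differed little between the treatments in the cytoplasm. Their summed level was 6917, 6854 and 6656 CPM in NT cultures 1, 2 and 4 and 6577, 6726 and 6578 CPM in N6L cultures 1, 2 and 3, and these ranges overlapped. In the polysomes it was 6631, 6060 and 6329 CPM in the NT cultures and 5932, 4673 and 4132 CPM in the N6L cultures, every N6L culture below every NT culture. In bulk RNA, fewer dividing cells and less of these mRNAs per dividing cell cannot be told apart.

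**Figure D1:**
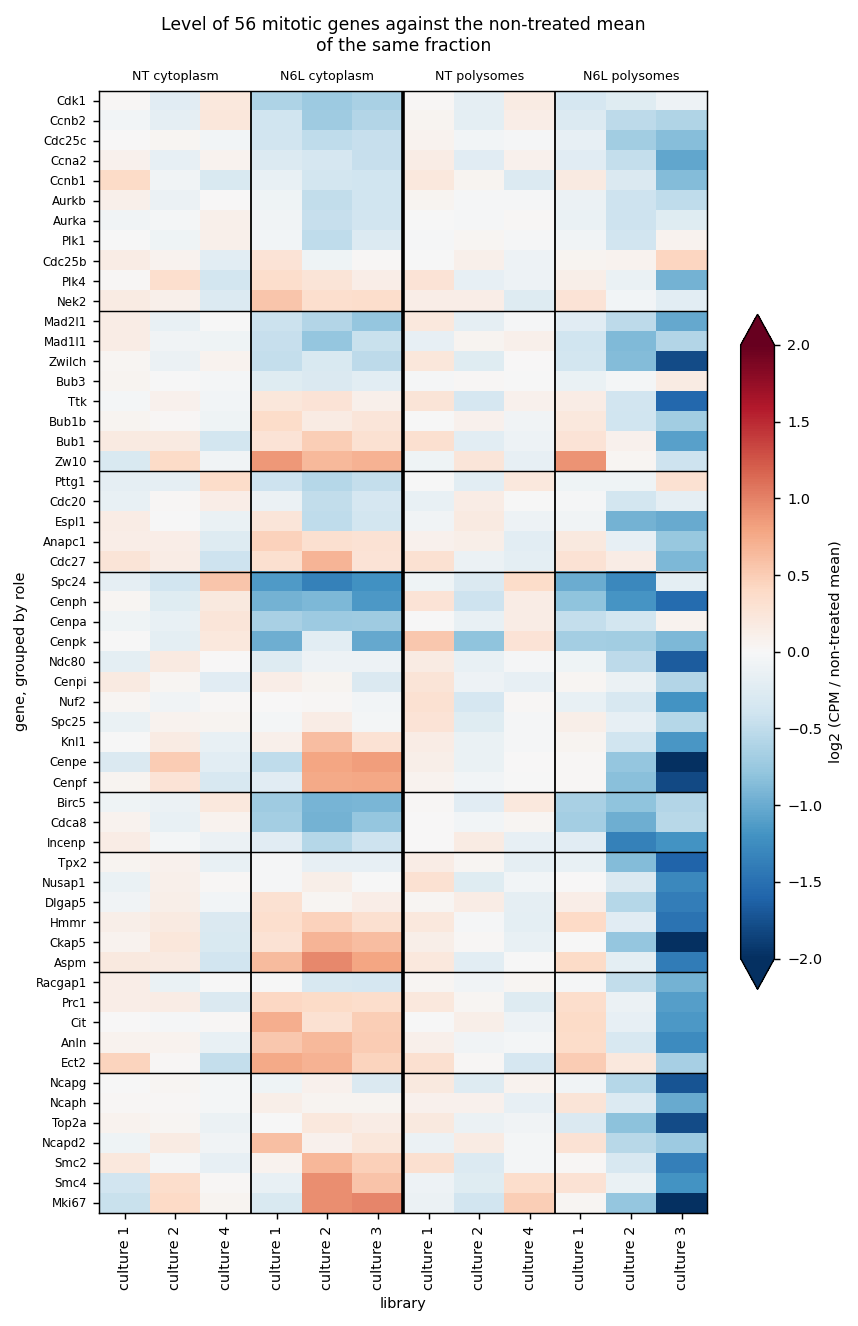
Level of each of the 56 genes (rows, grouped by role and ordered by cytoplasmic change) in the 12 libraries (columns), as log2 of the CPM over the NT mean of the same fraction, with colours capped at 2 either way. The cytoplasm of the N6L cultures shows blue at Spc24, Cenph, Birc5 and Cdca8 and red at Aspm, Anln and Zw10, and the polysomes of N6L culture 3 are blue for most genes (median -0.97).

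To see which mitotic mRNAs N6L altered in the cytoplasm, the treated and the non-treated cytoplasmic libraries were compared with the quasi-likelihood test of edgeR, and p-values were adjusted over all 13889 genes tested by the method of Benjamini and Hochberg. Of the 56 genes, 9 were lower in N6L cells at an FDR under 0.05 and 0 were higher. Among all genes tested 28.3% passed this limit, 14.5% higher and 13.8% lower, so the mitotic genes were called lower about as often as other genes and higher in no case. The median log2 change of the 56 was 0.01, against 0.04 for all genes, with 28 genes above 0 and 28 below. An unadjusted p under 0.05 was reached by 15 of them, where 42.5% of all genes reached it. The 3 N6L cultures lay all above the 3 NT cultures for 15 genes (29.3% of all genes tested) and all below them for 16 (25.6%).

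Among the kinases, cyclins and phosphatases, Cdk1 and the B-type cyclin Ccnb2 fell. Cdk1 (ENSMUSG00000019942, chromosome 10 from 69335146 to 69352938, GRCm38), whose kinase activity starts mitosis, was at 375, 318 and 428 CPM in the cytoplasm of NT cultures 1, 2 and 4 and at 243, 223 and 237 CPM in that of N6L cultures 1, 2 and 3. All N6L cultures lay below all NT cultures, with little spread among them. Its log2 change was -0.67 (standard error 0.15, FDR 0.00687), from 374 ± 54.9 to 234 ± 10.3 CPM (SD, n = 3 each). Ccnb2 changed by -0.57 (FDR 0.0189), from 137, 126 and 166 to 108, 86.9 and 94.4 CPM, again without overlap. Ccnb1, the cyclin that most often partners Cdk1 at mitotic entry, was at 135, 98.3 and 83.9 CPM in NT and at 93.6, 80.1 and 79.0 CPM in N6L cells, and these ranges overlapped (log2 difference -0.33, FDR 0.308).

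The remaining kinases did not pass the test in the cytoplasm. Plk1, which acts on centrosomes, kinetochores and the cleavage plane, was at 126, 119 and 135 CPM in NT and at 122, 89.3 and 105 CPM in N6L cells (-0.26, FDR 0.211). Aurka, the kinase of the spindle poles, was at 138, 141 and 155 CPM and at 138, 105 and 111 CPM (-0.29, FDR 0.141). For both genes the groups overlapped through N6L culture 1, which stood within the NT range. Plk4, the kinase of centriole duplication, was at 59.5, 74.2 and 45.6 CPM in NT and at 74.9, 70.2 and 64.3 CPM in N6L cells (0.22, FDR 0.499). The log2 differences of the others were -0.32 for Aurkb, the kinase of the passenger complex, -0.36 for the A-type cyclin Ccna2, -0.45 for Cdc25c and 0.06 for Cdc25b, the phosphatases that activate Cdk1, and 0.41 for Nek2, which separates centrosomes, with FDR values of 0.0588 to 0.781.

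In the spindle assembly checkpoint, Mad2l1 (-0.59, FDR 0.0354) and its partner Mad1l1 (-0.56, FDR 0.0221) fell, while Bub1 (0.34), Bub1b (0.26), Bub3 (-0.25) and the kinase Ttk (0.20) did not pass. Mad2l1, the protein that restrains Cdc20 at unattached kinetochores, was at 180, 147 and 161 CPM in NT and at 121, 108 and 94.8 CPM in N6L cells, without overlap. The groups did not overlap for any of the 8 checkpoint genes, but in different directions, 4 higher and 4 lower. Zw10, which with Zwilch brings dynein to the kinetochore, had the largest difference of the group, from 11.2, 18.1 and 13.2 CPM to 25.3, 21.7 and 22.5 CPM (0.71, standard error 0.28), and missed the limit with an FDR of 0.0673. Zwilch was at -0.43 (FDR 0.213). Ttk, which starts checkpoint signalling, was at 35.7, 39.1 and 35.4 CPM in NT and at 43.1, 44.2 and 39.3 CPM in N6L cells.

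None of the 5 genes of the anaphase-promoting complex, separase and securin passed in the cytoplasm. Pttg1, the securin that inhibits separase, came nearest, with 56.6, 56.3 and 82.2 CPM in NT and 48.0, 43.3 and 46.1 CPM in N6L cells (-0.51, FDR 0.0513). The N6L cultures all lay below the NT cultures. Cdc20 (-0.31), the activating subunit, the core subunits Cdc27 (0.41) and Anapc1 (0.35), and the separase Espl1 (-0.18) had FDR values of 0.145 to 0.601.

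The largest decreases were found at the kinetochore. Spc24 (ENSMUSG00000074476, chromosome 9 from 21755442 to 21760303), 1 of the 4 subunits of the Ndc80 complex that grips microtubules, was at 37.9, 33.0 and 62.8 CPM in NT and at 19.5, 16.8 and 18.5 CPM in N6L cells. NT culture 4 was far above the other NT cultures, and all N6L cultures were below all of them. The log2 change was -1.28 (standard error 0.29, FDR 0.00713), and it stayed between -1.46 and -0.99 when any 1 culture was left out. The other 3 subunits of the same complex were near 0, with -0.16 for Ndc80, -0.01 for Nuf2 and 0.02 for Spc25 (FDR 0.69 to 0.985).

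Cenph (ENSMUSG00000045273, chromosome 13 from 100759674 to 100775899), a subunit of the inner kinetochore network, was at 52.5, 43.2 and 57.9 CPM in NT and at 26.3, 27.2 and 22.9 CPM in N6L cells. The groups lay well apart, with a log2 change of -1.01 (standard error 0.21, FDR 0.00553). Cenpa, the histone H3 variant that marks the centromere, fell from 214, 206 and 268 to 146, 137 and 139 CPM (-0.71, FDR 0.00918). Of the partners of Cenph, Cenpk was at -0.69 (FDR 0.0905) and Cenpi at -0.04 (FDR 0.908). Cenpe, the kinetochore kinesin, and Cenpf, a large protein of the outer kinetochore, varied strongly between N6L cultures. Cenpe was at 52.0, 90.4 and 54.7 CPM in NT and at 44.9, 110 and 113 CPM in N6L cells (0.45, FDR 0.44). Cenpf was at 57.1, 66.4 and 44.1 CPM and at 47.0, 93.2 and 94.3 CPM (0.49, FDR 0.306). In both genes N6L cultures 2 and 3 were above every NT culture and N6L culture 1 was not, and the same held for Mki67.

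The chromosomal passenger complex corrects faulty attachments and later guides cytokinesis, with Aurkb as its kinase. Its non-enzymatic subunits all had N6L cultures below every NT culture. Birc5, or survivin (ENSMUSG00000017716, chromosome 11 from 117849251 to 117855743), was at 222, 219 and 273 CPM in NT and at 145, 124 and 125 CPM in N6L cells, a log2 change of -0.86 (standard error 0.16, FDR 0.00268). Cdca8, or borealin, fell from 167, 143 and 166 to 98.4, 82.6 and 92.4 CPM (-0.80, FDR 0.00274). Incenp, the scaffold, was at 233, 205 and 193 CPM and at 180, 141 and 158 CPM (-0.40, FDR 0.218). Per kilobase of transcript, Birc5 was the most abundant of the 56 genes in NT cytoplasm (251 CPM per kilobase), followed by Cenpa (157) and Cdc20 (115), while Cit (2.77) and Aspm (2.89) were the least abundant.

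None of the spindle, cytokinesis and condensin genes passed in the cytoplasm, and most had positive differences (5 of 6, 4 of 5 and 6 of 7). Aspm, a protein of the spindle poles, was at 32.2, 31.8 and 21.6 CPM in NT and at 43.5, 54.6 and 48.6 CPM in N6L cells, without overlap (0.78, standard error 0.31, FDR 0.0752). Ckap5, a microtubule polymerase, was at 102, 114 and 79.1 CPM and at 119, 156 and 149 CPM, also without overlap (0.52, FDR 0.255). Ect2, the exchange factor that starts the contractile ring, was at 167, 125 and 88.2 CPM and at 207, 199 and 167 CPM (0.59, FDR 0.121). Anln, which anchors that ring, was at 151, 150 and 130 CPM and at 208, 225 and 203 CPM (0.57, FDR 0.129). For Ect2 the lowest N6L culture was marginally above the highest NT culture, and for Anln the groups lay clearly apart.

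Top2a (ENSMUSG00000020914, chromosome 11 from 98992943 to 99024189), the topoisomerase that untangles sister chromatids, was at 452, 441 and 397 CPM in NT and at 429, 495 and 478 CPM in N6L cytoplasm (0.12, FDR 0.749). Mki67 (ENSMUSG00000031004, chromosome 7 from 135689784 to 135716361), whose protein Ki-67 coats mitotic chromosomes and is stained as a proliferation marker, was at 163, 291 and 230 CPM in NT and at 179, 424 and 437 CPM in N6L cells (0.61, standard error 0.43, FDR 0.291). For both genes the groups overlapped. The condensin subunits Smc2 (0.42), Smc4 (0.49), Ncapd2 (0.32), Ncapg (-0.08) and Ncaph (0.08) had FDR values of 0.261 to 0.849.

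**Figure D2:**
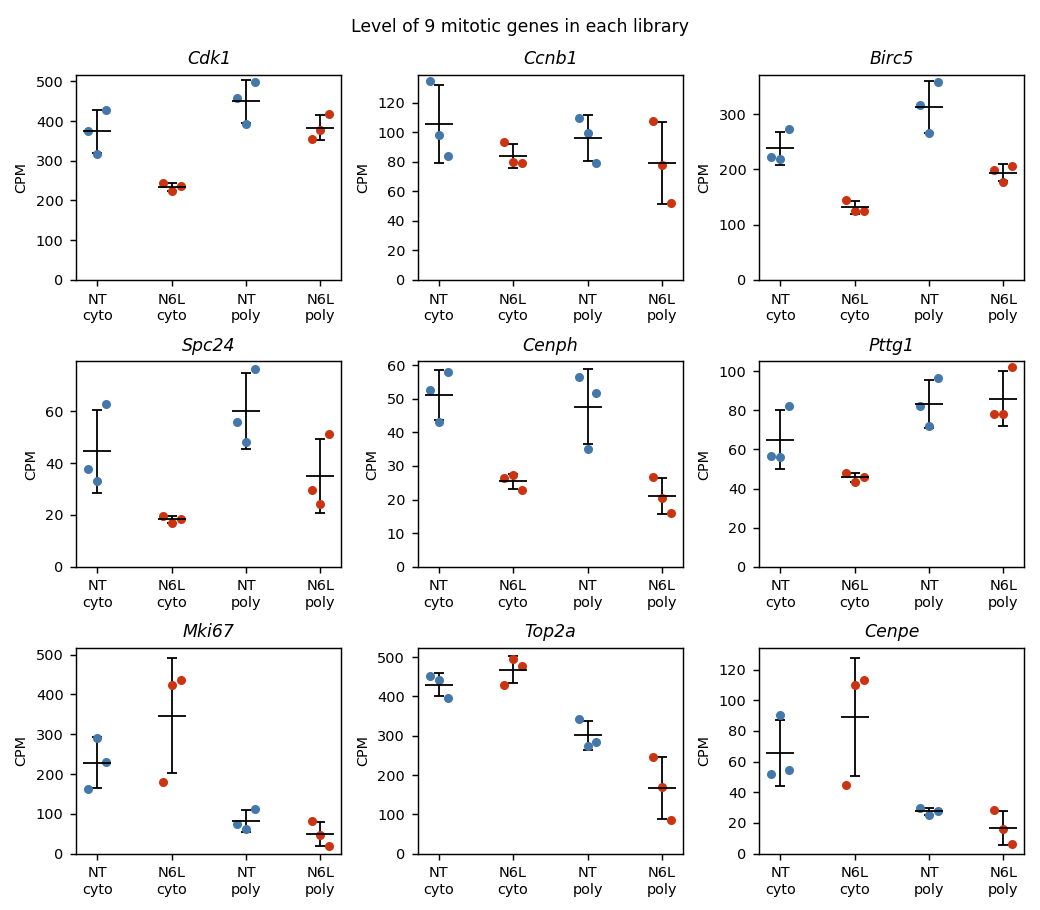
Level in CPM of 9 of the genes in each library, with NT cultures in blue and N6L cultures in red, a dash for the mean and bars for the SD (n = 3 per group). Cdk1, Birc5, Spc24 and Cenph are lower in all 3 N6L cytoplasmic libraries, whereas Mki67, Top2a and Cenpe are lowest in the polysomes of N6L culture 3.

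The cytoplasmic differences followed the length of the coding sequence. Of the 21 genes with a coding sequence under 1500 bases, 8 were called lower, with a median log2 change of -0.45, against -0.17 and 22.3% called lower among all genes of that length. The 18 genes of 1500 to 3000 bases had a median of 0.07, with Mad1l1 called lower, and the 17 longer genes a median of 0.42 with 0 called, against 0.25 and 0.50 for all genes of these lengths. Spearman's rho between coding length and log2 change was 0.79 over the 56 genes and 0.49 over 12123 genes with a coding length, as a description across genes measured in the same libraries. With offsets for transcript length and GC content in each library, all 9 genes were still called lower, 11 in total, and rho over the 56 genes was 0.49. Cdk1, Cenpa, Cenph, Spc24, Birc5 and Cdca8 were called whichever culture was left out. With no filter on low counts 17 members passed, 8 of them higher, and in a fit of the cytoplasmic libraries alone 21 passed, 6 of them higher, and with the replicate number as a block 13 passed, 3 of them higher (Aspm, Anln and Ect2), so the count of 0 members called higher depends on these settings.

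**Figure D3:**
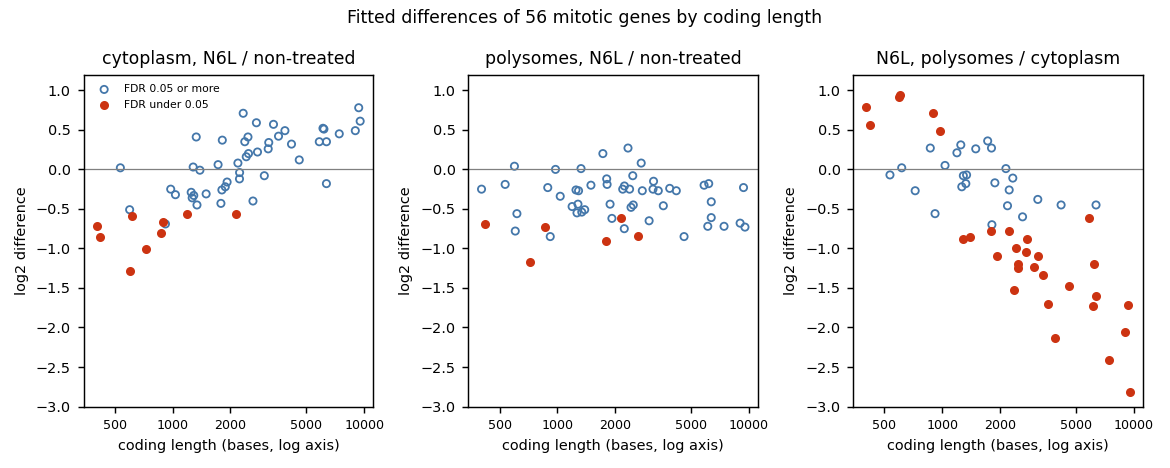
Fitted log2 difference of each of the 56 genes (points, filled at an FDR under 0.05) against the length of its coding sequence on a log axis, for N6L over NT in the cytoplasm, N6L over NT in polysomes, and polysomes over cytoplasm in N6L cells. The points climb with length in the cytoplasm (rho 0.79), are level in polysomes (rho -0.02) and descend with length in the polysome-to-cytoplasm comparison (rho -0.82).

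In the polysomes, few mitotic mRNAs passed the test, and most had lower fitted levels in N6L cells. Of the 56 genes, 50 had a log2 difference below 0, and the median was -0.37, against 0.00 for all genes tested. The same test called 6 genes lower and 0 higher, where 9.67% of all genes were called, 6.01% higher and 3.66% lower. An unadjusted p under 0.05 was reached by 20 of the 56, and by 26.5% of all genes. N6L cultures lay all below the NT cultures for 12 genes (11.9% of all genes) and all above them for 0 (13.7%). The 6 genes called lower were Cenph, Zwilch, Incenp, Cdca8, Birc5 and Mad1l1, of which 4 were also called lower in the cytoplasm.

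The 3 non-enzymatic subunits of the chromosomal passenger complex all fell in polysomes. Birc5 went from 316, 265 and 358 CPM in NT cultures 1, 2 and 4 to 199, 177 and 207 CPM in N6L cultures 1, 2 and 3 (-0.69, standard error 0.16, FDR 0.0157). Cdca8 went from 184, 176 and 188 to 114, 92.9 and 124 CPM (-0.73, FDR 0.00915). Incenp went from 188, 211 and 167 to 160, 73.8 and 82.2 CPM (-0.84, FDR 0.0428), with N6L culture 1 close to the NT range. Their kinase Aurkb was at -0.34 (FDR 0.179).

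At the kinetochore, Cenph had the largest polysomal decrease, from 56.5, 35.0 and 51.6 to 26.7, 20.6 and 16.1 CPM (-1.17, standard error 0.22, FDR 0.00624). All 11 kinetochore and centromere genes had polysomal differences below 0, from -1.17 to -0.19. Spc24, at 55.9, 48.2 and 76.3 CPM in NT and 29.7, 24.2 and 51.3 CPM in N6L polysomes, overlapped between the groups through N6L culture 3 (-0.78, FDR 0.0979). Cenpa was at 287, 258 and 320 CPM and at 206, 222 and 300 CPM, with the same culture inside the NT range (-0.25, FDR 0.374). In the checkpoint, Zwilch fell from 67.1, 48.3 and 57.8 to 44.3, 31.4 and 16.6 CPM (-0.91, FDR 0.0432) and Mad1l1 from 59.1, 68.6 and 70.5 to 50.2, 35.9 and 44.1 CPM (-0.61, FDR 0.0332), while Zw10 stood at 0.27 (FDR 0.567).

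Cdk1, Ccnb2 and Mad2l1, called lower in the cytoplasm, did not pass in polysomes. Ccnb1, Plk1, Aurka, Cdc25b and Pttg1, not called in the cytoplasm, did not pass there either. Cdk1 was at 457, 393 and 499 CPM in NT and at 356, 377 and 418 CPM in N6L polysomes (-0.23, FDR 0.355), with N6L culture 3 above NT culture 2. Ccnb2 was at -0.47 (FDR 0.0798) and Mad2l1 at -0.56 (FDR 0.0819), both without overlap between the groups. Ccnb1 was at 110, 99.5 and 79.3 CPM in NT and at 108, 78.0 and 52.4 CPM in N6L polysomes, with N6L culture 1 near the highest NT culture and N6L culture 3 below them all (-0.27, FDR 0.502). Plk1 (-0.12), Aurka (-0.26) and Cdc25b (0.20) had FDR values of 0.263 to 0.668, and Pttg1, at 82.0, 71.8 and 96.2 CPM against 78.0, 77.9 and 102 CPM, did not differ detectably (0.04, FDR 0.902).

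The mRNAs of the spindle, cytokinesis and condensin groups were all lowest in the polysomes of N6L culture 3. Top2a was at 343, 275 and 284 CPM in NT and at 246, 169 and 86.6 CPM in N6L polysomes, every N6L culture below every NT culture, and missed the limit (-0.85, standard error 0.26, FDR 0.0586). Mki67 was at 73.7, 61.0 and 112 CPM and at 81.7, 46.6 and 20.0 CPM (-0.73, standard error 0.43, FDR 0.299). Aspm was at 20.3, 15.2 and 17.5 CPM and at 22.9, 15.3 and 6.66 CPM (-0.23, FDR 0.682). In Mki67 and Aspm, N6L culture 1 was within or above the NT range, N6L culture 2 was below or at its lower end, and N6L culture 3 was far below it. N6L culture 3 was also the lowest of all polysomal libraries for Cenpe (28.2, 16.1 and 6.09 CPM in N6L cultures 1, 2 and 3), Cenpf (30.8, 16.8 and 8.67 CPM), Ckap5 (69.8, 41.1 and 17.0 CPM), Anln (130, 80.8 and 42.4 CPM), Ect2 (122, 100 and 54.2 CPM), Ttk (26.6, 18.3 and 8.05 CPM) and Plk4 (48.8, 41.1 and 23.5 CPM).

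The polysomal calls varied with the culture left out, while the log2 changes of the called genes stayed below 0. The ranges were -1.37 to -1.01 for Cenph, -0.82 to -0.62 for Cdca8 and -0.80 to -0.57 for Birc5. For Mad1l1 the range was -0.73 to -0.49, for Zwilch -1.26 to -0.61 and for Incenp -1.28 to -0.65. Without N6L culture 1, 22 members were called lower and the median of the 56 was -0.69, where 11.2% of all genes were called. Without N6L culture 3 the call was made for 4 members (7.77% of all genes) and the median was -0.21. No member was called without N6L culture 2 or without NT culture 1, and calls over all genes fell as well, to 1.04% and 1.44%. In these 2 fits of edgeR, 14 and 12 members reached an unadjusted p under 0.05 (17.5% and 19.8% of all genes). Without NT culture 4, 2 members were called (4.44% of all genes). DESeq2 called 13 members lower (14.6% of all genes), and 16 were called lower with offsets for length and GC content (20.7% of all genes), in both cases with 0 higher.

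**Figure D4:**
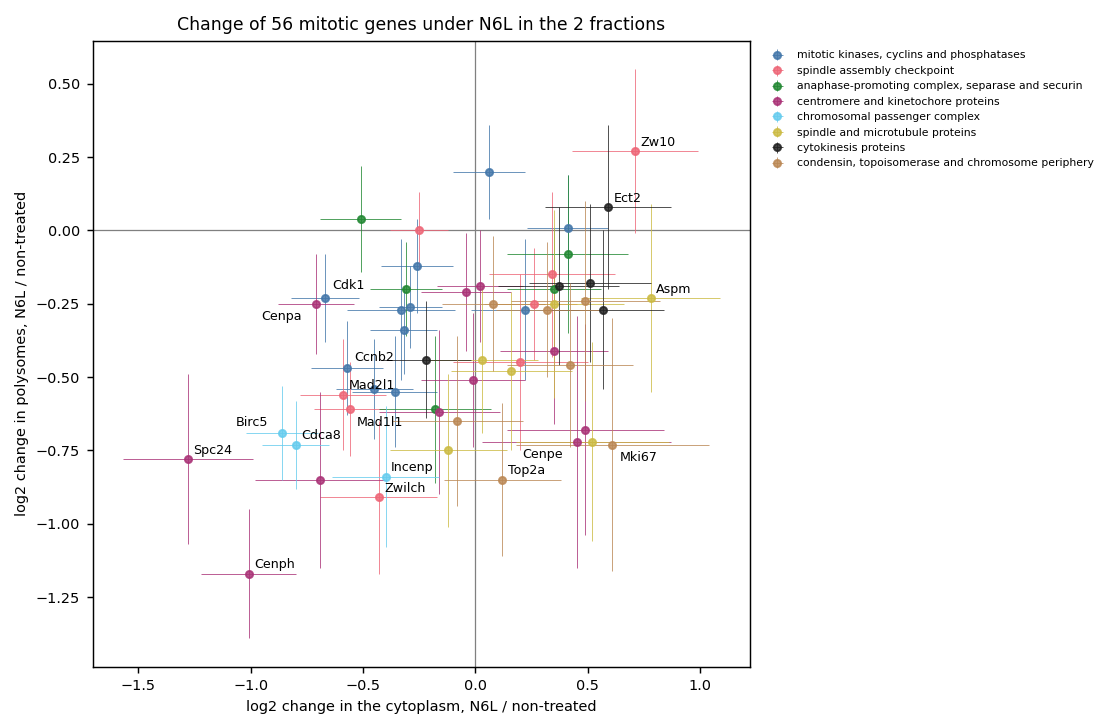
Fitted log2 change under N6L of each of the 56 genes in the cytoplasm (horizontal) and in polysomes (vertical), with bars for the standard error and colours for the role group. The cytoplasmic values spread from -1.28 to 0.78 around 0, whereas 50 of the 56 polysomal values lie below 0.

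The polysome-to-cytoplasm difference within each treatment gives the loading of an mRNA relative to the other mRNAs. In NT cells, 0 of the 56 genes passed the test (0.209% of all genes passed). An unadjusted p under 0.05 was found for 13 (13.4% of all genes), and DESeq2 called 2 (1.97% of all genes). The median was -0.14, against 0.03 for all genes. The lowest values were those of Mki67 (-1.47), Smc4 (-1.40), the condensin ATPase subunit, and Cenpe (-1.24), with FDR values of 0.114 to 0.244. The highest were those of Spc24 (0.43), Birc5 (0.39) and Pttg1 (0.36).

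In N6L cells the same comparison called 31 of the 56 genes, 25 lower in polysomes and 6 higher, where 39.0% of all genes were called, 20.6% lower and 18.4% higher. The median log2 difference was -0.51, against 0.03 for all genes. The 6 genes higher in polysomes were Spc24 (0.94, FDR 0.0208), Pttg1 (0.91, FDR 0.00499), Cenpa (0.79, FDR 0.00563), Cdk1 (0.71, FDR 0.00548), Birc5 (0.56, FDR 0.0136) and Bub3 (0.49, FDR 0.0111). Each of these encodes a protein of small size, with a coding sequence of 402 to 978 bases. Of the 6 spindle genes all were lower, Ckap5 (-1.73), Aspm (-1.71), Hmmr (-1.52), Dlgap5 (-0.99), Nusap1 (-0.88) and Tpx2 (-0.78).

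The lower genes also included 5 of the 7 condensin, topoisomerase and chromosome periphery genes, 5 of the 11 kinetochore genes, 3 of the 5 cytokinesis genes, 3 of the 8 checkpoint genes, 2 of the 5 genes of the anaphase-promoting complex group and 1 of the 11 kinases, cyclins and phosphatases. The largest difference was that of Mki67, -2.81 (standard error 0.46, FDR 0.00427), followed by Cenpe (-2.41), Smc4 (-2.13), Cenpf (-2.06), Smc2 (-1.70), Knl1 (-1.60), the kinetochore scaffold, and Top2a (-1.48, FDR 0.0043). Anln (-1.33), Ttk (-1.25), Ect2 (-1.05) and Plk4 (-0.88) passed as well. Ccnb1 (-0.08, FDR 0.803), Plk1 (0.27, FDR 0.183), Aurka (0.31, FDR 0.0945) and Incenp (-0.60, FDR 0.0605) did not.

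Of the 17 genes with a coding sequence over 3000 bases, 14 were lower in polysomes of N6L cells, with a median of -1.48, against 63.4% of all genes of that length and a median of -0.81. The 21 genes under 1500 bases had a median of 0.05, with 6 higher and 2 lower. All genes of that length had a median of 0.29, with 31.8% higher and 7.25% lower. With offsets for length and GC content 22 of the 56 genes were called, 5 higher and 17 lower, where 16.4% of all genes were called. The median of the long genes was then -0.75, against -0.32 for all long genes. Under these offsets Birc5 was no longer higher (-0.02), Spc24 was no longer called (0.38, FDR 0.233), and Mad2l1 was newly called higher (1.12, FDR 0.00455). Anapc1, a long subunit that had been called lower (-0.62), was at 0.24. Plk4, Zwilch, Cdc27, Knl1, Tpx2, Ect2 and Ncapg were no longer called lower. Leaving out N6L culture 2 left 12 calls and leaving out N6L culture 3 left 20, while calls over all genes fell to 8.22% and 11.7%. Leaving out N6L culture 1 gave 38, beside 40.0% of all genes. A fit with a block for each lysate, pairing its polysomal with its cytoplasmic library, called 40, beside 53.7% of all genes.

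**Figure D5:**
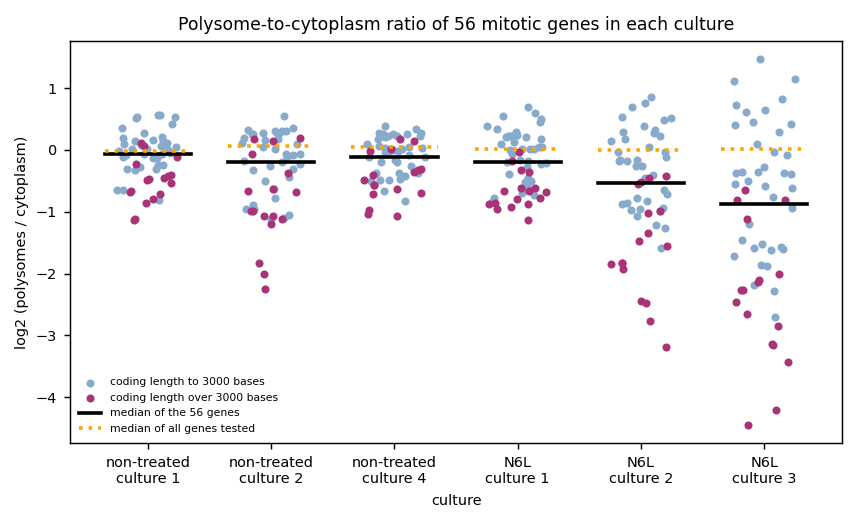
Log2 ratio of polysomal to cytoplasmic level of each of the 56 genes in each culture (points, in purple for coding sequences over 3000 bases), with their median (black) and the median of all genes tested (dotted). The median of the 56 is -0.07, -0.19 and -0.11 in NT cultures 1, 2 and 4 and -0.19, -0.54 and -0.88 in N6L cultures 1, 2 and 3, while the median of all genes stays between -0.02 and 0.06.

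Culture by culture, 13 of the 56 genes in N6L culture 1, 37 in culture 2 and 42 in culture 3 had a polysome-to-cytoplasm ratio below that of every NT culture, against 24.1%, 34.6% and 41.1% of all genes tested. Mki67 had log2 ratios of -1.14, -2.25 and -1.04 in NT cultures 1, 2 and 4 and of -1.13, -3.18 and -4.45 in N6L cultures 1, 2 and 3. Top2a had ratios of -0.40, -0.68 and -0.49 and of -0.80, -1.55 and -2.46. For Top2a each N6L culture was below each NT culture, whereas for Mki67 culture 1 was not. In the opposite direction, Cdk1 had ratios of 0.28, 0.31 and 0.22 in NT and of 0.55, 0.76 and 0.82 in N6L cells, without overlap, and Pttg1 of 0.53, 0.35 and 0.23 and of 0.70, 0.85 and 1.15, also without overlap.

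The log2 translational index, the polysome-to-cytoplasm difference in N6L cells minus that in NT cells, asks whether that loading differed between the treatments. It was called for 0 of the 56 genes and for 0.0% of all genes by edgeR, and DESeq2 called 0 members. At an unadjusted p under 0.05 it held for 8 members, among 7.73% of all genes, and all 8 were below 0: Mki67 (-1.34, standard error 0.61), Ckap5 (-1.24), Cenpf (-1.17), Aspm (-1.01), Top2a (-0.97, standard error 0.37), Smc2 (-0.88), Anln (-0.83) and Knl1 (-0.76). This count varied with the culture left out, with 0 members without NT culture 1, NT culture 4 or N6L culture 2 (3.41%, 6.05% and 2.87% of all genes), 2 without N6L culture 3 (2.96%), 5 without NT culture 2 (4.92%) and 28 without N6L culture 1 (18.1%). A fit with a block for each lysate, which pairs its 2 libraries, gave 19 members at an unadjusted p under 0.05 (21.6% of all genes). No gene passed the FDR limit in that fit. The median index of the 56 was -0.45, against 0.01 for all genes, with 42 below 0 and 14 above, and it stayed between -0.70 and -0.23 when 1 culture was left out. The ratios of the N6L cultures lay all below those of the NT cultures for 12 genes (14.4% of all genes) and all above them for 4 (15.3%), Cdk1, Cenpa, Pttg1 and Bub3. The highest indices were those of Pttg1 (0.55, standard error 0.26), Spc24 (0.51), Cenpa (0.46) and Cdk1 (0.44), all with FDR values of 0.555 to 0.593. Without a filter on low counts 5 members passed, all lower, beside 0.44% of all genes.

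The index fell with coding length, with a Spearman's rho of -0.86 over the 56 genes and -0.58 over all genes with a coding length. Its median was 0.03 for members under 1500 bases, -0.47 for those of 1500 to 3000 and -0.76 for longer ones, against 0.18, -0.18 and -0.56 for all genes of these lengths. With offsets for length and GC content the members' medians were -0.11, -0.34 and -0.49, against 0.06, -0.09 and -0.24, so members were lower than other genes of their length in each class, without a test of that difference.

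The remaining mitotic machinery was described through 128 further genes in 7 lists, all of which were tested. In the cytoplasm 33 were lower and 5 higher, where 13.8% and 14.5% of all genes were. In polysomes 14 were lower and 0 higher (3.66% and 6.01% of all genes), with 109 of 128 below 0 and a median of -0.34. In the polysome-to-cytoplasm comparison of N6L cells 51 were lower and 25 higher (20.6% and 18.4% of all genes). The counts of single lists below are to be read against the same shares, and no difference between lists was tested. Further kinetochore and centromere genes held 10 of the genes lower in the cytoplasm and 6 of those lower in polysomes, of 26, and Cenpm, another inner kinetochore subunit, had the largest cytoplasmic change (86.8, 66.6 and 125 CPM in NT and 40.3, 34.2 and 38.7 CPM in N6L cells, log2 change -1.30, FDR 0.00695). Of 16 further subunits and regulators of the anaphase-promoting complex, 7 were lower, led by Anapc11, the RING subunit (-1.17, FDR 0.00235), and 9 were higher in polysomes than in cytoplasm under N6L. Of 14 cohesin and condensin II genes, 12 were lower in polysomes than in cytoplasm under N6L, and in the cytoplasm 1 was lower and 1 higher, the cohesin loader Nipbl (1.03, FDR 0.0297).

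The mitotic kinesins had 1 of 12 genes lower in the cytoplasm (13.8% of all genes), Kif22 (-0.59, FDR 0.0215), and 7 lower in polysomes than in cytoplasm under N6L. The spindle pole and augmin list had 6 of 23 lower and 3 higher in the cytoplasm, with Haus1, an augmin subunit, at -1.18 (FDR 0.00471), and 5 lower in polysomes. Among 17 further regulators of mitotic entry and exit 5 were lower in the cytoplasm, with the Cdk subunit Cks1b at -0.90 (FDR 0.00344). Among 20 transcriptional regulators of G2 and M phase genes 3 were lower and 1 was higher. The lower genes were E2f1 (-0.82, FDR 0.00476), Lin37 (-0.60, FDR 0.017) and E2f2 (-0.48, FDR 0.0362). The higher gene was Rbl2, the pocket protein p130, which went from 29.3, 27.2 and 19.2 CPM to 44.0, 52.8 and 48.0 CPM (0.93, FDR 0.0107).

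The promoter letters were set against the cytoplasmic calls. Of the 9 members lower in the cytoplasm 8 had a promoter in the table, and the CHR letters stood in those of 4, against 24 of the other 39 members. The letters of the CCAAT box stood in those of 5, against 28. Cdk1, with both motifs in the window printed above, and Birc5, with neither, were both called lower.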

How the data were processed

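RNA of 12 libraries (cytoplasmic and polysomal, 3 NT and 3 N6L cultures) was sequenced after poly(A) selection with a stranded TruSeq kit. Reads were aligned with STAR to mm10 by the authors and assigned to genes with HTSeq (0.5.3 per the labels). The deposited values are raw counts in 48 tables, 4 technical replicates for each library. The strand setting, the annotation and the rule for multi-mapping reads are not stated in the labels or the methods, so counts of genes with near-identical copies (pseudogenes named after Ccnb1 and Ccnb2 exist) or with exons that overlap another gene (16 of the 56, over 10% of exonic bases in Ccna2, Cdc25c, Prc1 and Ncapg) are uncertain to that extent.

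Technical replicates were summed, and samples were grouped by the labels. Of 50600 listed genes, 50376 matched GENCODE vM21 (GRCm38), the source of symbols, coordinates and the lengths and GC content of APPRIS principal transcripts; 0 entries named no gene. Genes were filtered with filterByExpr (13889 kept), TMM-scaled and tested in R 4.3.3 with the quasi-likelihood functions glmQLFit and glmQLFTest of edgeR 4.0.16 (1 mean per fraction and treatment, no block, common biological coefficient of variation 0.197), with Benjamini-Hochberg adjustment over all genes and a limit of 0.05. Ratios per culture used a prior count of 2. Groups were said not to overlap where all 3 CPM values, or ratios, of one treatment lay beyond those of the other. The fit was tested on simulated counts. DESeq2 1.42.0, other scalings and filters, each culture left out, blocks and offsets for transcript length and GC content (splines with 5 degrees of freedom per library) were alternatives.

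The members, their role groups, the further lists and the genes given library by library were chosen with earlier results of these data known. Values in every cytoplasmic library are given for 10 members listed by name (Mki67, Top2a, Cdk1, Ccnb1, Plk1, Aurka, Birc5, Cenpe, Cenpf and Aspm) and, in each role group, for the members with the largest cytoplasmic change and the largest index. Polysomal values are given for part of these members. Values of Cenph, Cenpa, Cdca8, Ccnb2, Mad2l1, Mad1l1 and Zwilch, in either or both fractions, were added after their calls were seen. Of each further list, the gene with the largest cytoplasmic change past the limit was named. The lower genes among the transcriptional regulators were named as well, after their calls were seen.

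Both libraries of a culture stem from the same lysate and are therefore paired. Over genes, the 2 libraries deviated together from their group means with r of 0.364, 0.452 and 0.645 (NT cultures 1, 2 and 4) and of 0.0368, 0.199 and 0.229 (N6L cultures 1, 2 and 3). A block for the lysate kept all 31 calls of N6L polysomes against cytoplasm and gave 40; it changed no call of the other comparisons within cultures.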

Additional observations from a re-analysis of the deposited data

How the results depend on the processing

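Each library held at least 19519911 counts, and each group 3 cultures. In the cytoplasm, 9 members were called, beside 28.3% of all genes, and 6 to 13 with 1 culture left out (9.24% to 28.7%). No filter gave 17 (17.0%), and a fit of the groups compared only gave 21 (42.2%). In polysomes, 6 were called (0 to 22 with 1 culture left out), 3 with libraries scaled by total counts alone, 17 with no filter, 13 with DESeq2, 16 with offsets for length and GC content and 1 in a fit of the groups compared only. For NT polysomes against cytoplasm, 0 were called, beside 0.209% of all genes, and 0 to 4 with 1 culture left out (0.0% to 2.38%). No filter gave 9 (2.5% of all genes), DESeq2 2 (1.97%) and the replicate number as a block 1 (1.93%). Offsets and the culture block gave 1 (3.61%), and a fit of the groups compared only gave 6 (1.06%). For N6L polysomes against cytoplasm, 31 were called, beside 39.0% of all genes, and 12 to 38 with 1 culture left out (8.22% to 41.8%). For the index 0 were called, and 5 with no filter (0.44% of all genes). Other counts, such as 12 members in the cytoplasm with DESeq2 (33.1% of all genes), stayed within 1.5 times. Total counts alone moved the median cytoplasmic change of all genes from 0.04 to 0.19 and the genes called higher from 2013 of 3935 to 2588 of 3951, and that of the members to 0.15.

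Of 280 fitted values of members, 38 changed sign under offsets for length and GC content, 23 without N6L culture 3, 13 with total counts alone, 9 with the replicate number as a block and 0 to 11 under the other alternatives with 280 values. With offsets and the culture block, 29 of 168 did. Among values called in either fit, sign changes occurred only under the offsets. In N6L polysomes against cytoplasm Anapc1 was at 0.24 and Birc5 at -0.02, with and without the culture block, and with that block Aurkb was at -0.31. In NT polysomes against cytoplasm Mad2l1 was at 0.56 with it. The cause was not tested. Numbers 1 and 2 are shared across treatments, and their deviations correlated by 0.228 and 0.0455 in the cytoplasm and 0.296 and 0.00756 in polysomes. The paired libraries of N6L cultures 1, 2 and 3 correlated by 0.0368, 0.199 and 0.229. These values therefore cannot show whether a number marks a shared batch, and the main fit used no block. The numbers as a block gave 13 cytoplasmic calls (34.1% of all genes), 3 of them higher, and 7 polysomal calls (9.76% of all genes).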
